A study of Mus musculus with 9 samples.

Results

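Adgre1, Adgre4 and Adgre5 encode the F4/80 group of adhesion receptors, and their mRNA levels were followed in 9 RNA-sequencing libraries from mice. The 3 genes were taken by name from the 55322 genes of the expression table, and all 3 were found there, each on a single row. These receptors carry EGF-like repeats on a long extracellular part that is joined to 7 membrane-spanning helices, and they belong to the adhesion G protein-coupled receptors (GPCRs). Adgre1 encodes F4/80, the surface protein by which mouse macrophages are usually recognised. Adgre4 encodes a related receptor of myeloid cells, also called FIRE. Adgre5 encodes CD97, which is found on most leukocytes, binds CD55 and can signal through G proteins of the G12/13 class to RhoA.

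The libraries fall into 3 groups of 3. B cells with CD11b on their surface (CD11b+) and without it (CD11b-) were sorted from the BM of wild-type mice 48 h after an injection of LPS (5 mg/kg), once cells carrying CD3, CD4, CD8, Gr-1, NK1.1 or TER119 had been removed. Peritoneal macrophages (PMs) were sorted as CD11b+F4/80+ cells from untreated wild-type mice. The age of the mice, and whether a library holds cells of a single mouse or a pool, are not stated in the labels or methods. The study used the SD for biological replicates, the SEM for technical ones, and the SD for these FPKM, so the libraries of a group were taken as biological replicates. CD11b protein separated the B cell groups, and F4/80 protein was part of the gate for PMs but not of the gate for B cells. PMs differ from both B cell groups in cell type, tissue and LPS treatment, which cannot be told apart here.

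Each library held between 18014658 and 35251215 reads on genes. Values are FPKM, the reads of a gene scaled by the length of its exons and by the reads on all genes of the library, so levels of different genes can be compared on this scale. Defining markers went with the labels. Over 16 B cell genes such as Cd79a and Pax5 the summed FPKM was 14152 to 17505 in CD11b+ B cells, 14443 to 17342 in CD11b- B cells and 150 to 294 in PMs. Over 11 genes of resident PMs such as Gata6 and Timd4 it was 10515 to 11109 in PMs and 68.6 to 89.6 over the 6 B cell libraries.

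Adgre1 and Adgre4 lie on the same strand of chromosome 17. On GRCm38 (GENCODE M21), Adgre1 spans bases 57358691 to 57483527 with up to 23 exons in 5 annotated transcripts, and Adgre4 spans bases 55749984 to 55853662 with 17 exons in a single transcript. The stretch between them is 1505028 bases long. Adgre5 lies on the minus strand of chromosome 8, from base 83723251 to base 83741326, with up to 20 exons. No stretch of 31 transcript bases was shared between any pair of the 3 genes, and Adgre1 and Adgre4 shared none with other genes. Adgre5 differs in this respect. Its exons share 895 of 3757 bases with Ddx39a, an RNA helicase gene on the opposite strand, and 754 of its 3911 stretches of 31 bases also occur in transcripts of that gene. Whether reads were counted by strand is unknown here, so reads of Adgre5 and Ddx39a could not be told apart there.

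The bases just before the Adgre4 start are shown because Adgre4 had the largest ratio of mean FPKM between the B cell groups among the 3 genes. They come from RefSeq (GRCm38.p6, plus strand), where an entry was found for 1 of the 3 genes. The first line covers chr17:55749734-55749983, the 250 bases before the start. The second covers chr17:55750004-55750033, bases 21 to 50 of the transcript. Capitals mark the only match, on either strand, to GAGGAA, the core recognised by the myeloid and B cell factor PU.1.
Adgre4 before the start: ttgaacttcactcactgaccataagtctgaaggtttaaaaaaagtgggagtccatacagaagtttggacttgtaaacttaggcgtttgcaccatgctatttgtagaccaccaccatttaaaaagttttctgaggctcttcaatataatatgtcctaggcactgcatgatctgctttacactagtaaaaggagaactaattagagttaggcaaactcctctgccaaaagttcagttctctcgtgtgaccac
Adgre4 after the start: gaacaagataagcagtggtgcacTTCCTCc
The match begins at base 44 of the transcript. Of 32851 promoter windows of the same 300 bases, 28.28% held these letters on either strand.

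Adgre1 was abundant in PMs and low in B cells. The 3 PM libraries read 232, 240 and 345 FPKM (273 ± 63.0, SD, n = 3). The CD11b+ B cell libraries read 3.42, 2.7 and 2.7 FPKM (2.94 ± 0.414, SD, n = 3). The CD11b- B cell libraries read 1.49, 0.558 and 0.279 FPKM (0.776 ± 0.634, SD, n = 3). The 3 groups did not overlap, with PMs highest and CD11b- B cells lowest, a complete separation below PMs that 12.4% of the genes tested showed in CD11b+ B cells and 15.2% in CD11b- B cells. Among CD11b- libraries, replicate 1 stood above the others. The values in B cells rested on 229 to 325 reads in each CD11b+ library and on 29 to 161 reads in each CD11b- library. By mean FPKM, Adgre1 ranked 179 of 55322 genes in PMs, 9199 in CD11b+ B cells and 12382 in CD11b- B cells.

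Adgre4 had the same order of groups at lower levels. It read 41.9, 22.2 and 30.04 FPKM in PMs (31.4 ± 9.91, SD, n = 3). In CD11b+ B cells it read 0.390, 0.854 and 1.23 FPKM (0.824 ± 0.419, SD, n = 3), from 40, 78 and 151 reads. In CD11b- B cells it read 0.0944, 0.0575 and 0.0447 FPKM (0.0655 ± 0.0258, SD, n = 3), from 11, 7 and 5 reads. Again no library of one group overlapped another group, and every CD11b- library stood below 0.1 FPKM. The counts of 5 to 11 reads leave the CD11b- level, and any ratio formed with it, imprecise.

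Adgre5 was present at a high level in every library. It read 206, 201 and 164 FPKM in PMs (191 ± 22.9, SD, n = 3). In CD11b- B cells it read 65.7, 59.3 and 72.7 FPKM (65.9 ± 6.67, SD, n = 3). In CD11b+ B cells it read 48.3, 65.2 and 56.2 FPKM (56.5 ± 8.49, SD, n = 3). PMs stood above all B cell libraries, whereas the B cell groups overlapped. Its rank was 264 in PMs, 819 in CD11b- B cells and 1027 in CD11b+ B cells.

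**Figure D1:**
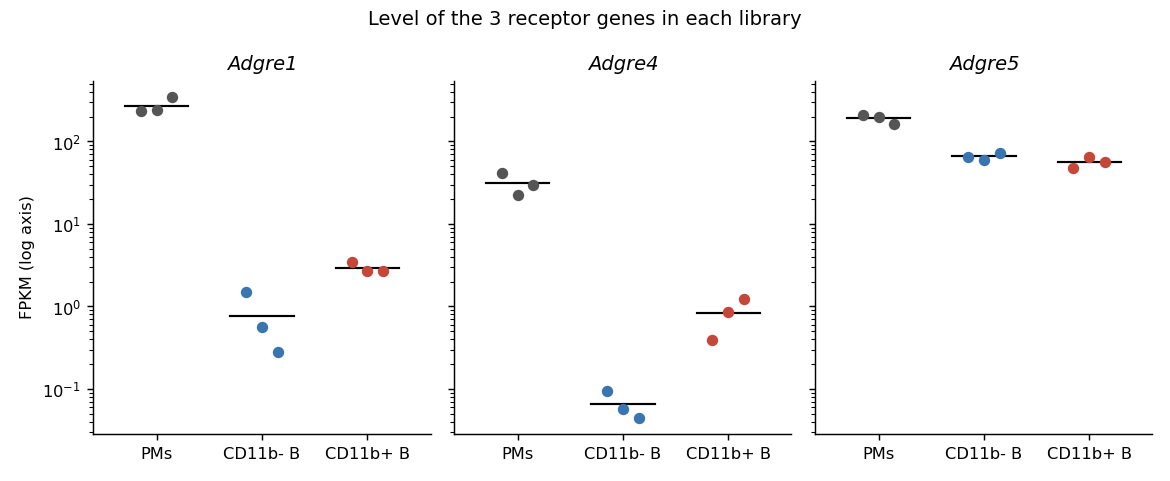
FPKM of Adgre1, Adgre4 and Adgre5 in PMs, CD11b- B cells and CD11b+ B cells, on a log axis shared by the 3 panels. Points are single libraries (3 per group, replicates 1 to 3 from left to right) and lines are group means. Adgre1 and Adgre4 fall from 273 and 31.4 FPKM in PMs to under 4 FPKM in every B cell library, while Adgre5 stays between 48.3 and 72.7 FPKM in B cells.

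The composition of the family differed between the cell populations. In PMs, Adgre1 made up 48.3 to 64.0% of the summed FPKM of the 3 genes and Adgre5 30.5 to 43.3%. In B cells, Adgre5 made up 97.6 to 99.6% of the sum in CD11b- libraries and 92.7 to 94.8% in CD11b+ libraries. The log2 ratio of Adgre1 to Adgre5, each with 1 FPKM added, does not depend on the scaling of a library apart from that added value. It was 0.50 ± 0.49 in PMs, -3.86 ± 0.35 in CD11b+ B cells and -5.29 ± 0.55 in CD11b- B cells (SD, n = 3 each). The groups did not overlap, and each of the 3 differences (1.43 between the B cell groups, -4.36 and -5.79 for CD11b+ and CD11b- B cells against PMs) gave p = 0.1 in an exact two-sided permutation test, the smallest p that 3 against 3 libraries allow. With 0.1 FPKM added in place of 1, the difference between the B cell groups was 2.27.

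The comparison of CD11b+ with CD11b- B cells asks whether B cells that carry a myeloid surface protein after LPS also carry more mRNA of myeloid receptors. Mean Adgre1 FPKM was 3.79-fold higher in CD11b+ B cells, and mean Adgre4 FPKM was 12.6-fold higher, each with all 3 CD11b+ libraries above all 3 CD11b- libraries. Mean Adgre5 FPKM in CD11b+ B cells was 85.8% of that in CD11b- B cells, with overlapping libraries. On the log2(FPKM + 1) scale, which understates the change of low genes, the differences were 1.2 for Adgre1 (SE 0.30, 95% interval 0.50 to 1.90), 0.75 for Adgre4 (SE 0.20, interval 0.28 to 1.21) and -0.22 for Adgre5 (SE 0.15, interval -0.58 to 0.13).

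None of the 3 passed an adjusted p of 0.05 by limma with Benjamini-Hochberg adjustment over 21778 genes. The adjusted p-values were 0.371 for Adgre1, 0.408 for Adgre4 and 0.727 for Adgre5. The unadjusted limma p-values of Adgre1 and Adgre4 were 0.00426 and 0.00601, and 7.68% of all genes tested had an unadjusted p under 0.05. The same fit called 15 genes higher (0.0689% of those tested) and 0 lower (0.0%). Separation of the libraries was more frequent, since all CD11b+ libraries stood above all CD11b- libraries for 8.63% of the genes tested. The exact two-sided permutation test gave p = 0.1 for Adgre1 and Adgre4 and p = 0.2 for Adgre5.

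The call for Adgre1 and Adgre4 depended on the tool. On the whole reads recovered from the FPKM, DESeq2 called both, with an adjusted p of 0.0341 for Adgre1 and 0.000129 for Adgre4, and it called 1.45% of all genes higher. The edgeR quasi-likelihood test on the same reads called neither, with adjusted p-values of 0.366 and 0.113, and it called 0.269% of genes higher. The log2 difference in reads was 1.90 for Adgre1 and 3.64 for Adgre4 by DESeq2. Adgre5 was called by neither tool. The size of the Adgre1 difference rested in part on a single library, since without CD11b- replicate 1 the ratio of means was 7.02-fold in place of 3.79-fold. For Adgre4 the ratio stayed between 9.49-fold and 16.1-fold when each library was left out.

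**Figure D2:**
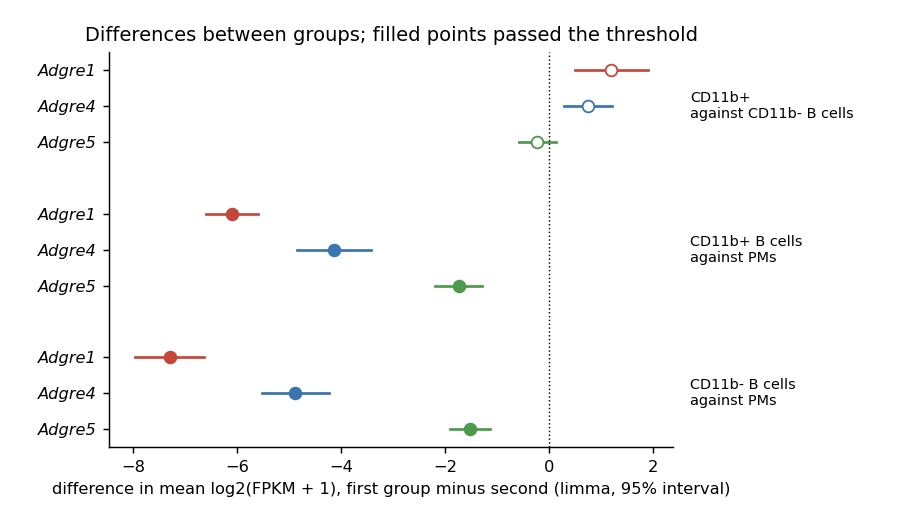
Differences in mean log2(FPKM + 1) for the 3 receptor genes in the 3 comparisons, first group minus second, with 95% intervals from limma on 3 libraries per group. Open points did not pass an adjusted p of 0.05. Against PMs all 6 points are filled and lie between -7.30 and -1.52, and between the B cell groups all 3 are open, with Adgre1 at 1.2 and Adgre5 at -0.22.

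Against PMs, all 3 receptor genes were lower in both B cell groups. Mean Adgre1 FPKM was 1.08% of the PM mean in CD11b+ B cells and 0.284% in CD11b- B cells. Mean Adgre4 FPKM was 2.63% and 0.209% of the PM mean, and mean Adgre5 FPKM 29.7% and 34.6%. F4/80 protein, which Adgre1 encodes, was part of the PM gate, and the part of the gate in the Adgre1 difference was not tested. The CD11b- value for Adgre1 was 0.153% without CD11b- replicate 1.

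In CD11b+ B cells the log2(FPKM + 1) differences from PMs were -6.10 for Adgre1 (SE 0.21, adjusted p = 9.76e-07 by limma), -4.13 for Adgre4 (SE 0.31, adjusted p = 4.30e-05) and -1.74 for Adgre5 (SE 0.20, adjusted p = 0.000412). In CD11b- B cells they were -7.30 for Adgre1 (SE 0.29, adjusted p = 1.88e-06 by limma), -4.88 for Adgre4 (SE 0.27, adjusted p = 1.11e-05) and -1.52 for Adgre5 (SE 0.17, adjusted p = 0.000396). All 3 genes thus fell in each comparison, where limma called 8.78% of all genes lower in CD11b+ B cells and 11.0% lower in CD11b- B cells. Both comparisons use the same PM libraries. Over all genes, 71.0% and 70.1% of the calls were higher in B cells. With libraries scaled by the median ratio of their genes these shares were 53.2% and 52.5%, the median difference of all genes moved from 0.25 to 0.13 and from 0.24 to 0.07, and the Adgre5 differences were -2.23 and -2.04. Ddx39a, which overlaps Adgre5, went the other way, with 16.7 ± 1.57 FPKM in PMs, 57.5 ± 2.15 in CD11b- B cells and 61.1 ± 15.6 in CD11b+ B cells (SD, n = 3 each).

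The level in B cells relative to PMs was compared with that of genes of monocytes and macrophages. Of 18 monocyte and macrophage genes (Csf1r, Lyz2, Cd14, the C1q genes and others), 15 had a mean of at least 1 FPKM in PMs. In CD11b+ B cells these 15 stood at 0.376 to 18.8% of their PM mean, with a median of 0.926%, but they were kept by their level in PMs, which favours a low share. The other 3 had higher means in CD11b+ B cells than in PMs. Ly6c2, a surface protein of inflammatory monocytes, read 26.4 to 46.1 FPKM in CD11b+ B cells and 0.0750 to 0.163 FPKM in PMs. It was also above PMs in CD11b- B cells, at 10.1 to 19.2 FPKM. Ms4a7 read 0.306 to 0.858 FPKM in CD11b+ B cells and at most 0.0111 FPKM in PMs. Cd300e, an activating receptor of monocytes, read 0.326 to 3.06 FPKM in CD11b+ B cells and at most 0.0949 FPKM in PMs. Over all 18 genes the median share was 1.55% in CD11b+ B cells, where Adgre1 stood above 8 genes, Adgre4 above 11 and Adgre5 above 15, and 0.132% in CD11b- B cells, where Adgre1 and Adgre4 each stood above 13. These ranks are a description. Relative to 11 genes of resident PMs, whose median was 0.181% of the PM mean in CD11b+ B cells, Adgre1 stood above 9 and Adgre4 above 10.

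**Figure D3:**
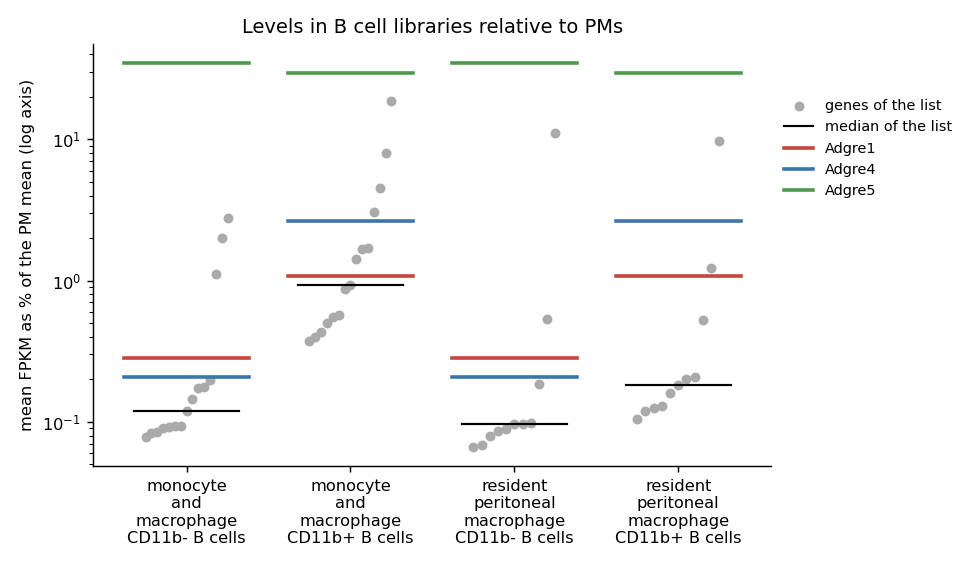
Mean FPKM in each B cell group as a percent of the PM mean, on a log axis. Grey points are the 15 monocyte and macrophage genes and the 11 resident PM genes with a PM mean of at least 1 FPKM, black lines their medians, and coloured lines the 3 receptor genes. Ly6c2, Ms4a7 and Cd300e, under 1 FPKM in PMs and higher in CD11b+ B cells, are not plotted. Adgre5 lies at 29.7 and 34.6%, above every gene plotted, and Adgre1 at 1.08% in CD11b+ B cells.

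Markers of other cell types also differed between the B cell groups, and in bulk samples a few cells with much mRNA and many cells with little cannot be told apart. All 18 monocyte and macrophage genes had a positive log2 difference between CD11b+ and CD11b- B cells, with a median of 1.04 against 0.03 for all genes tested, and 15 of the 18 did not overlap (8.63% of all genes tested), although none passed the threshold by limma. Itgam, whose protein defined the sort, is on this list. Their summed FPKM was 62.8 to 73.4 in CD11b- libraries and 184 to 363 in CD11b+ libraries. Of these 18 genes Cd300e alone was at 0 reads in all CD11b- libraries. Neutrophil genes (16 listed, 3 called higher by limma, against 0.0689% of all genes tested) summed to 2.06 to 3.30 FPKM in CD11b- libraries and to 219 to 1602 FPKM in CD11b+ libraries. Of 11 genes of resident PMs, 9 were tested and 0 called, 7 had a positive difference, 4 had all CD11b+ libraries above all CD11b- libraries, and the median was 0.24. Their sums of 71.3 to 89.6 FPKM in CD11b- and 68.6 to 79.2 FPKM in CD11b+ libraries were mostly Icam2, an adhesion molecule (means of 68.7 and 60.6 FPKM), and the other 10 genes summed to 7.80 to 12.5 and 12.0 to 17.3 FPKM. The 16 B cell genes went the other way, since 2 had a positive difference, the median was -0.24 and 7 had all CD11b+ libraries below all CD11b- libraries (6.32% of all genes tested), with 0 called. Without Ighm, the heavy chain of IgM, the B cell genes summed to 9015 to 10455 FPKM in CD11b- and 7043 to 8227 FPKM in CD11b+ libraries. Eosinophil genes, with Ear1 and Ear6 at 0 reads in both groups, summed to 15.3 to 43.6 FPKM in CD11b- libraries and 18.8 to 32.9 FPKM in CD11b+ libraries. Without Il5ra, a chain of the interleukin-5 receptor at up to 16.9 FPKM in B cells, they summed to 1.77, 1.19 and 33.1 FPKM in CD11b- and 7.72, 6.73 and 21.8 FPKM in CD11b+ libraries. The sums of 6 dendritic cell genes were 0.694 to 2.53 and 1.84 to 2.52 FPKM, those of 10 T and NK cell genes 0.0614 to 2.66 and 2.91 to 5.30 FPKM, and those of 6 erythroid genes 1.88 to 22.8 and 32.4 to 44.1 FPKM. Without Nkg7, a gene of cytotoxic cells, the T and NK cell sums overlapped (0.0614 to 2.66 and 0.936 to 2.88 FPKM). The part of these cell types in the Adgre1 and Adgre4 values was not tested.

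Among CD11b+ libraries, Adgre4 was highest in replicate 3 (1.23 FPKM), where the neutrophil sum was lowest (219 FPKM). The order of the monocyte and macrophage sums rested on Lyz2, the lysozyme gene, at 261, 240 and 65.4 FPKM in CD11b+ replicates 1, 2 and 3. The other 17 genes summed to 102, 98.0 and 118 FPKM in these libraries, and to 31.2 to 36.1 FPKM in the CD11b- libraries. The groups thus did not overlap without Lyz2 either. The higher sum of replicate 3 rested in turn on Ly6c2, at 28.6, 26.4 and 46.1 FPKM in CD11b+ replicates 1, 2 and 3. Adgre1 was highest in CD11b+ replicate 1 (3.42 FPKM). Cd300e read 0.326, 1.23 and 3.06 FPKM in CD11b+ replicates 1, 2 and 3. This is the order of Adgre4, a likeness seen only after the values were known. The order varied over the list, and Csf1r (3.56, 3.19 and 1.36 FPKM) and Ccr2 (0.549, 0.192 and 0.0126 FPKM) had the reverse order in these replicates. Itgam, which encodes the CD11b protein used for the sort, read 1.31 to 1.92 FPKM in CD11b+ libraries and 0.251 to 0.869 FPKM in CD11b- libraries. Adgre1 FPKM exceeded Itgam FPKM in all 3 CD11b+ libraries (means of 2.94 and 1.58), whereas in CD11b- B cells Adgre1 was the higher in replicates 1 and 2 and Itgam in replicate 3.

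**Figure D4:**
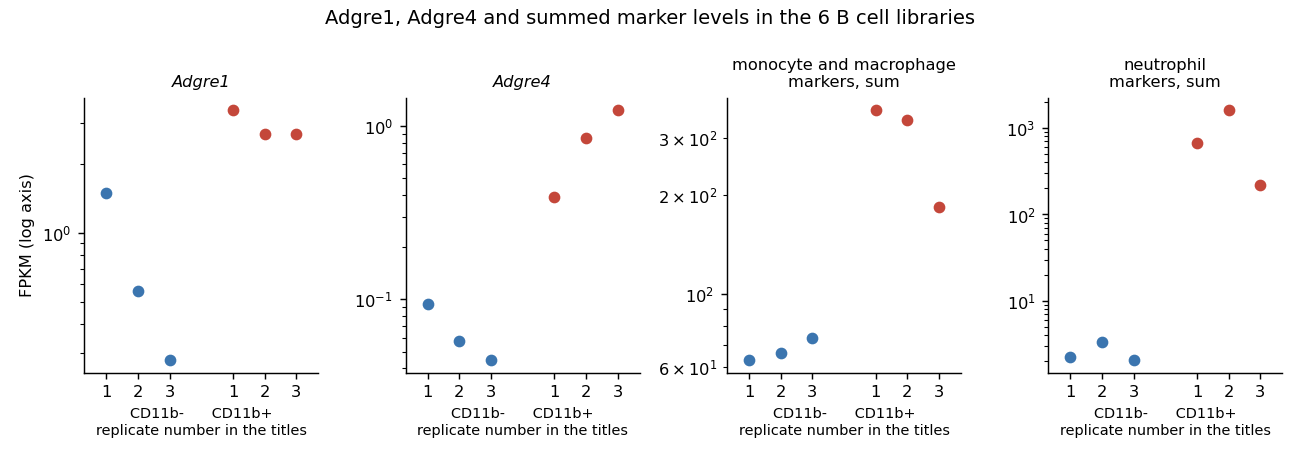
FPKM of Adgre1 and Adgre4 and summed FPKM of 18 monocyte and macrophage genes and 16 neutrophil genes in the 3 CD11b- (blue) and 3 CD11b+ (red) B cell libraries, each panel with its own log axis. Every CD11b+ point lies above every CD11b- point, and CD11b+ replicate 3 has the highest Adgre4 value (1.23 FPKM) and the lowest neutrophil sum (219 FPKM). Its monocyte and macrophage sum (184 FPKM) is the lowest of the CD11b+ libraries through Lyz2, without which it is the highest (118 FPKM). That highest rank rests in turn on Ly6c2 (46.1 FPKM in this library).

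The rest of the adhesion GPCR family was low in these cells. Of 27 other genes, 8 passed the filter of a mean of 0.05 FPKM in the comparison of the B cell groups, 15 where CD11b+ B cells were set against PMs and 14 where CD11b- B cells were, and 5 reached a mean of 1 FPKM in any group. None of the 8 was called between the B cell groups by limma, edgeR or DESeq2 (0.0689%, 0.269% and 1.45% of all genes higher), and 0 had an unadjusted limma p under 0.05 (7.68% of all genes), counts that for 8 genes lie near the background. Adgre1, Adgre4 and Adgre5 were the most abundant adhesion GPCR genes in PMs, where the next, Adgrg6, had a mean of 2.49 FPKM.

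Against PMs, 2 of 15 family genes rose and 3 fell in CD11b+ B cells (background 21.5% higher and 8.78% lower), and 3 of 14 rose and 3 fell in CD11b- B cells (25.8% and 11.0%). Adgrg6, a receptor known from Schwann cell development, read 1.89 to 2.96 FPKM in PMs and at most 0.00835 FPKM in any B cell library (differences of -1.78 and -1.79, adjusted p = 0.0016 and 0.000984 by limma). Celsr3, a cadherin of axon guidance, read 0.994 to 2.36 FPKM in PMs and at most 0.0745 FPKM in B cells, and also fell (-1.29 and -1.28, adjusted p = 0.00776 and 0.00604 by limma). Adgrl2, a latrophilin, was the reverse case, at 0.234 to 1.02 FPKM in CD11b+ B cells, 1.18 to 1.51 FPKM in CD11b- B cells and at most 0.0195 FPKM in PMs (0.69 and 1.19, adjusted p = 0.0413 and 0.00208 by limma). Its call in CD11b+ B cells was lost when any PM library or CD11b+ replicate 1 or 2 was left out, and with libraries scaled by the median ratio of their genes (0.58, adjusted p = 0.0581 by limma), and it held in 9 of 18 alternatives. All CD11b+ libraries lay below all CD11b- libraries for this gene, as for 6.32% of all genes tested, with a difference of -0.50 that was not called (adjusted p = 0.681 by limma).

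Adgrg1, a receptor of cytotoxic lymphocytes and progenitors, read 1.77, 1.25 and 8.75 FPKM in CD11b- B cells, 0.590, 1.30 and 1.31 FPKM in CD11b+ B cells and at most 0.0410 FPKM in PMs. CD11b- replicate 3 stood far above the other libraries. The gene rose against PMs in both groups (1.0 and 1.95, adjusted p = 0.0112 and 0.0236 by limma), and the call in CD11b- B cells was lost when any PM library was left out. Adgrg5 read 0.230 to 2.13 FPKM in PMs, and 71 of its 74 reads in B cells came from CD11b+ replicate 3 (0.642 FPKM). It was not called against PMs (-0.72 and -0.94, adjusted p = 0.193 and 0.0572 by limma), but in CD11b- B cells 9 of 18 alternatives called it lower, with adjusted p-values over all 18 of 4.24e-07 to 0.148.

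Partners of Adgre5 were taken from a list of 13 genes for its ligands and the G12/13 to RhoA route. None of the 12 tested was called between CD11b+ and CD11b- B cells by limma, edgeR or DESeq2, which called 0.0689%, 0.269% and 1.45% of all genes higher. Cd55, the main ligand, read 60.2 to 77.8 FPKM in CD11b+ B cells, 64.6 to 77.0 FPKM in CD11b- B cells and 1.33 to 2.57 FPKM in PMs. It rose against PMs by 4.56 and 4.63 on the log2 scale (adjusted p = 5.17e-06 and 3.69e-06 by limma). The means of receptor and ligand were 56.5 and 68.5 FPKM in CD11b+ B cells and 65.9 and 71.5 FPKM in CD11b- B cells, whereas PMs held 191 FPKM of Adgre5 and 1.97 FPKM of Cd55. Thy1, another ligand, stayed below 0.33 FPKM in every library and was not called (-0.30 and -0.29, adjusted p = 0.111 and 0.0939 by limma). It was called lower in 7 and 8 of 18 alternatives, with adjusted p-values of 0.00122 to 0.240 in CD11b+ and 0.00361 to 0.216 in CD11b- B cells.

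Of the integrin chains that CD97 can bind or that pair with those, Itgb1 fell from 173 to 213 FPKM in PMs to 19.2 to 33.8 FPKM in CD11b+ and 11.4 to 21.95 FPKM in CD11b- B cells (-2.85 and -3.42, adjusted p = 7.21e-05 and 4.25e-05 by limma). Itga5 fell from a mean of 10.9 FPKM to 0.399 and 0.515 FPKM (-3.10 and -2.98, adjusted p = 0.000249 in both by limma). Itgb3 was higher than in PMs in all B cell libraries and passed the threshold in CD11b- B cells (0.88, adjusted p = 0.0422 by limma) but not in CD11b+ B cells (0.62, adjusted p = 0.117).

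Of the signalling genes, Gna13 and Arhgef1 rose against PMs and Gna12 and Arhgef12 fell, while Arhgef11 and Rhoa were not called. Gna13, a G protein alpha subunit, had a mean of 21.5 FPKM in CD11b+ B cells, 23.6 FPKM in CD11b- B cells and 11.8 FPKM in PMs, and rose (0.81 and 0.94, adjusted p = 0.0113 and 0.00304 by limma). Gna12, its closest relative, had means of 3.07, 3.09 and 9.42 FPKM in the same order and fell (-1.37 and -1.43, adjusted p = 0.00593 and 0.0126 by limma). Arhgef1, a guanine nucleotide exchange factor of lymphocytes, rose against PMs (0.84 and 0.80, adjusted p = 0.0216 and 0.01 by limma), and Arhgef12, another factor of this kind, fell (-2.12 and -2.38, adjusted p = 0.00233 and 0.000879). Arhgef11, a relative of Arhgef12, had differences of 0.36 and 0.48 (adjusted p = 0.354 and 0.162 by limma), and Rhoa, the small GTPase at the end of the route, of 0.29 in both (adjusted p = 0.427 and 0.397). Median-ratio scaling turned the sign of Rhoa in both comparisons (-0.20 and -0.24) and of Arhgef11 in CD11b+ B cells (-0.02). In all, 3 of the 13 genes rose and 4 fell in CD11b+ B cells (21.5% and 8.78% of all genes tested), and 4 rose and 4 fell in CD11b- B cells (25.8% and 11.0%). The rises of Gna13, Arhgef1 and Itgb3 were not called with libraries scaled by the median ratio of their genes (adjusted p = 0.0931 to 0.285 by limma), whereas Cd55 and the genes that fell were. Without CD11b- replicate 1 or 2 Gna12 lost its call in CD11b- B cells, and Itgb3 lost its call without any CD11b- library or PM replicate 2 or 3. The call of Arhgef1 was lost in CD11b+ B cells without CD11b+ replicate 2 or 3 or PM replicate 2 or 3, and in CD11b- B cells without CD11b- replicate 2, and that of Gna13 in CD11b+ B cells without CD11b+ replicate 2.

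**Figure D5:**
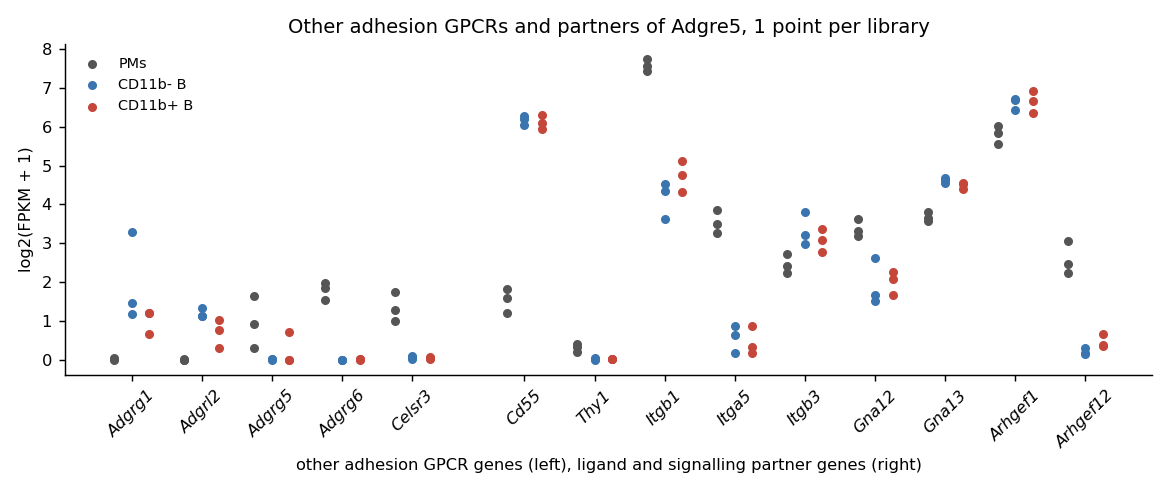
Levels as log2(FPKM + 1) of the 5 other adhesion GPCR genes that reached a mean of 1 FPKM in any group, and of 9 ligand and signalling partner genes of Adgre5, with 1 point per library (grey PMs, blue CD11b- B cells, red CD11b+ B cells). Cd55 lies high in B cells (means of 71.5 and 68.5 FPKM) and low in PMs (1.97 FPKM), and Itgb1, Itga5, Gna12 and Arhgef12 lie highest in PMs.

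The genes most like each receptor gene were sought by the Pearson correlation of log2(FPKM + 1) over the 9 libraries, among 13931 genes with a mean of at least 1 FPKM in any group. The 9 points fall into 3 groups, with PMs far from B cells for many genes, so the correlations are given as a description. Closest to Adgre1 were Rad51b (r = 0.996), a DNA repair gene, then Ifi204, an interferon-inducible gene, St3gal5, a ganglioside synthase, Tnfaip2 and Anxa3. Closest to Adgre4 were Gm21188 (r = 0.9996), C1rl, F630028O10Rik and Ppm1h. Gm21188 had means of 27.3 FPKM in PMs, 0.904 FPKM in CD11b+ B cells and 0.153 FPKM in CD11b- B cells, near those of Adgre4. Closest to Adgre5 were Luzp1 (r = 0.992), Tln1, which links integrins to actin, Flot1, Fes and Rnpep, all of which kept a level above 0.5 FPKM in both B cell groups. Adgre1 and Adgre4 correlated with each other at r = 0.987 and with Adgre5 at 0.933 and 0.949. For Adgre1, 883 genes had an r above 0.95, so likeness at this level was common.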

How the data were processed

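The members and gene lists were chosen with earlier results of these data known. Per the labels, total RNA was made into SMART-seq HT cDNA libraries, and the submitters' processing notes name Trim Galore 0.4.4, cutadapt 1.16, Trimmomatic 0.36, STAR 2.7.2b, featureCounts 1.6.1, DESeq2 1.20.0 and the builds GRCm38 and GRCm39. The authors deposited FPKM for 55322 genes, and a second table that gives a normalised signal (reads after division by each library's size factor) for 11063 genes, chosen by a p-value whose test is unknown here. It also holds a cluster number per gene, which was not used. Gene positions in the tables differ from those of GENCODE M21 by a constant per chromosome region, so positions are those of GENCODE M21 by identifier.

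Reads were recovered from both tables (100% of values whole within 0.05 of a read). They give the depth. Intervals are those of limma and rest on the spread between libraries. The main test was limma 3.58.1 (two-sided, with a trend), run on log2(FPKM + 1) of 6 libraries at a time, with a mean FPKM of at least 0.05, Benjamini-Hochberg over all genes, threshold 0.05. Members were also tested by exact permutation (scipy 1.17.1). edgeR 4.0.16 and DESeq2 1.42.0 on recovered reads, other pseudocounts, filters, scalings and left-out libraries were alternatives. Marker sums without the most abundant gene, and shares of the PM mean over every listed gene, were added after seeing the data. The fits were tested on simulated data. Named were the 3 members, other adhesion GPCR genes with a mean of at least 1 FPKM, partner genes past the threshold with Cd55 and Thy1, the 5 genes most correlated with each member (immunoglobulin and T cell receptor segments left out, and 1 gene not reported here), and marker genes at 0 or on which a result turned. Cd300e was singled out in its order over libraries after its values were seen.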

Additional observations from a re-analysis of the deposited data

How the results depend on the processing

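The fall of Adgre1, Adgre4 and Adgre5 against PMs kept its direction and its side of the threshold in all 114 refits (6 results). Between the B cell groups, Adgre1 and Adgre4 passed the threshold under DESeq2 only, on the reads of all genes (log2 differences of 1.90 and 3.64, adjusted p = 0.0341 and 0.000129) and on the reads of the size factor table (1.90 and 3.64, adjusted p = 0.0344 and 0.000309), and Adgre4 had no value with a minimum mean of 1 FPKM. No difference of the 3 members changed its sign. Among listed genes that were not called, signs changed in some alternatives, for Gna12 between the B cell groups in 8 of 20. The replicate numbers in the titles were not taken to pair the libraries, since not every same-numbered pair of CD11b+ and CD11b- libraries correlated above 0.1 (0.28, -0.02 and 0.21 for numbers 1 to 3, against -0.30 to 0.14 for different numbers). Pairs 1 and 3 also share a number in the library descriptions, and whether they are paired is unknown here. With this replicate block, 16 genes were called between the B cell groups in place of 15, with adjusted p-values by limma of 0.307 for Adgre1, 0.429 for Adgre4 and 0.665 for Adgre5, and 3 family genes in place of 5 were called between CD11b+ B cells and PMs. A block by the numbers in the library descriptions, added after seeing the data, called 0 genes (adjusted p = 0.656 for all 3 members), but it rests on these 2 pairs with 1 residual degree of freedom and says nothing about stability. Calls over all genes between the B cell groups were 37 and 25 with pseudocounts of 0.1 and 0.01, 2 without a filter, 31 with a minimum of 1 FPKM, 36 with 9 libraries in the fit, 59 and 42 by edgeR and 399 and 392 by DESeq2 on the size factor table and on all genes, and 3 to 40 with a library left out, the 40 without CD11b+ replicate 3. Calls of family genes in CD11b+ B cells against PMs were 3 without a filter, 1 with a minimum of 1 FPKM, 8 by DESeq2 on the size factor table, and 3 to 5 with a library left out, the 3 without CD11b+ replicate 1 or 2. In CD11b- B cells they were 2 with a minimum of 1 FPKM. Calls of partner genes in CD11b- B cells against PMs were 5 in place of 8 with median-ratio scaling, and 5 to 8 with a library left out, the 5 without CD11b- replicate 2. The cause of these shifts was not tested. Depth limits Adgre4 most, with 23 reads over the CD11b- libraries.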
